A study of Homo sapiens and Mus musculus with 74 samples.

Results

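The genes described here encode 10 neuropeptide precursors, the short secreted proteins that neurons cut into signalling peptides: Npy, Sst, Penk, Pdyn, Cck, Tac1, Pmch, Avp, Oxt and Vip. They were found by symbol in GENCODE M21, the mouse gene annotation on build GRCm38, among the 55174 genes whose transcripts are listed in the mouse count table, and each was read from the transcript with its longest protein. The 10 genes have 23 listed transcripts, and the chosen ones encode between 97 codons (Npy) and 268 codons (Penk). The libraries came from brain tissue of 10-week-old male C57BL/6J mice. Rpl41 KO mice (Rpl41-/-) carry a germline CRISPR-Cas9 deletion of the whole Rpl41 coding sequence, so every cell lacks it, and WT mice are Rpl41+/+. Rpl41 encodes RPL41, a very small protein of the ribosome. For each genotype, 3 RNA-seq libraries measured poly(A) RNA and 3 Ribo-seq libraries measured footprints, the RNA fragments that ribosomes protect from nuclease. Translational efficiency (TE) is footprints relative to RNA. The question was whether the RNA, the footprints or the TE of these precursors differed between KO and WT brain by more than libraries of 1 genotype differ among themselves. The labels name replicates without tying them to animals, and the study calls its replicates biological.

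A neuropeptide precursor enters the secretory pathway through a signal peptide, is packed into dense-core granules and is cleaved there by prohormone convertases, mostly at pairs of basic residues. Many of the peptides are then amidated at the C terminus before release. Each precursor is made by restricted sets of neurons, so its level in brain tissue depends on which regions the dissection took. Npy, Sst and Vip mark classes of cortical and hippocampal interneurons, and Cck is made by interneurons and many pyramidal cells. Penk, Pdyn and Tac1 are strongly expressed in striatal projection neurons. Avp and Oxt come from magnocellular neurons of the hypothalamus, and Pmch, the precursor of melanin-concentrating hormone, from neurons of the lateral hypothalamus.

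The genes lie at the following GRCm38 positions: Npy at chr6:49822710-49829507, Tac1 at chr6:7554879-7565834, Vip at chr10:5639218-5647617, Pmch at chr10:88091072-88092375 and Oxt at chr2:130576173-130577054 on the plus strand. On the minus strand are Sst at chr16:23889573-23890958, Penk at chr4:4133531-4138819, Pdyn at chr2:129686565-129699844, Cck at chr9:121489824-121495694 and Avp at chr2:130580620-130582554. Some of the precursors resemble each other or overlap other genes, which bears on how reads can be assigned. Avp, the vasopressin precursor, and Oxt, the oxytocin precursor, are neighbours on chromosome 2, with 3565 bases between them, on opposite strands. The codons of their nonapeptides, which lie inside the coding exons, are shown with the differing bases in capitals (reference genome GRCm38, 5′ to 3′ on the coding strand). Avp lies at chr2:130582446-130582472 on the minus strand and Oxt at chr2:130576267-130576293 on the plus strand.
Avp: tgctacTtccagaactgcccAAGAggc
Oxt: tgctacAtccagaactgcccCCTGggc
The 27 bases differ at 5 positions, counted from 1 at the 5′ end with the Avp base first, namely T7A, A21C, A22C, G23T and A24G. The other 22 bases are identical, and further downstream the coding sequences share an identical run of 127 bases. Its first 30 bases are shown because no read from within it can tell the genes apart.
Avp and Oxt: agtgtctcccctgcggcccgggcggcaaag
In all, 103 of the 553 stretches of 25 bases in the Avp transcript, or 18.6%, also occur in Oxt, and they make up 20.1% of those in Oxt. The shared run of 127 bases is a larger part of the coding sequences alone, which are 504 bases long in Avp and 375 in Oxt. The authors allowed reads that map to several places, so a part of the Avp and Oxt counts may be common to both.

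The opioid precursors Penk and Pdyn both carry Leu-enkephalin, and the 15 bases of 1 copy in each are shown with the differing bases in capitals. The Penk copy lies at chr4:4133941-4133955 and the Pdyn copy at chr2:129688238-129688252, both on the minus strand in coding exons.
Penk: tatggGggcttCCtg
Pdyn: tatggCggcttTTtg
These copies differ at 3 positions (G6C, C12T and C13T, Penk base first), and the transcripts share no stretch of 25 bases. The transcripts of Npy, Sst, Pdyn, Cck, Tac1 and Vip share no such stretch with any other listed gene. Pmch overlaps Parpbp on the opposite strand over 435 of its 749 exon bases (58.1%), and Penk overlaps A830012C17Rik over 157 of 1449 (10.8%). The library kit marks strand, but whether the counting used it is not given in the sources used here. In Oxt, a short stretch beyond the coding sequence (bases 470 to 518 of the transcript) holds 25-base stretches that also occur in 185 genes outside the precursors.

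The targeted gene was checked first. Rpl41 had 8981 to 12199 reads in WT brain RNA-seq libraries and 6 to 12 in KO libraries, and 37 to 76 footprints in WT against 0 to 4 in KO, so every library matched its label. Counts summed to between 84433838 and 123745890 per brain RNA-seq library and between 9498663 and 35881929 per Ribo-seq library. Values are given in CPM, which scale each library's counts to the same total, with TMM factors among the libraries of an assay. Neuron, astrocyte, oligodendrocyte and microglia markers were present in every library. The 7 kidney markers summed to 0.595 to 0.944 CPM in brain RNA-seq, where Umod and Kap were at 0 in all libraries. In Ribo-seq the kidney markers summed to 7.97 CPM in WT replicate 1 and 11.0 CPM in KO replicate 1, against 2.11 to 3.77 CPM in the other libraries. In both assays WT replicate 3 stood apart by pituitary genes. Its 8 pituitary markers summed to 613 CPM in RNA-seq and 697 CPM in Ribo-seq, against 0.587 to 3.84 CPM and 0.332 to 13.3 CPM in the other libraries. Olfactory bulb markers were also highest in WT replicate 3 (19.4 CPM in RNA-seq, against 6.22 to 15.3 CPM elsewhere). The 12 hypothalamus markers summed to 6.15 to 7.73 CPM in WT and 7.04 to 7.72 CPM in KO RNA-seq, and the 12 striatum markers to 230 to 317 CPM and 288 to 341 CPM, so both lists overlapped between genotypes. Markers of hippocampus (8 genes, 12.8 to 13.8 CPM in WT and 16.0 to 17.4 CPM in KO), astrocytes (226 to 254 and 276 to 286 CPM), microglia (43.1 to 47.2 and 49.0 to 50.4 CPM) and choroid plexus (301 to 360 and 364 to 436 CPM) were higher in every KO RNA-seq library. In Ribo-seq, the hippocampus, astrocyte, microglia and choroid plexus lists each overlapped between genotypes. In brain tissue, fewer cells of a type and less RNA per cell cannot be told apart.

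In WT brain, Cck, Sst and Penk were the most abundant precursors per length of transcript. Their mean RNA levels were 94.996 ± 18.1, 83.6 ± 10.2 and 53.2 ± 3.53 CPM per kb (SD, n = 3), followed by Npy at 30.5 ± 1.47 and Tac1 at 13.6 ± 0.136 CPM per kb. Pmch (8.77 ± 1.07), Oxt (7.84 ± 1.83), Avp (6.94 ± 0.760), Vip (4.96 ± 0.382) and Pdyn (4.34 ± 0.194) followed, in CPM per kb. The libraries of Cck and Sst overlapped, as did those of Pmch with Oxt and of Oxt with Avp, so the order within those pairs was not settled by the spread. Footprints per kb of coding sequence gave a like order, with Sst (173 ± 20.0), Cck (143 ± 9.80), Penk (118 ± 13.4) and Npy (86.0 ± 15.0 CPM per kb) at the top and Pdyn (15.1 ± 3.07 CPM per kb) at the bottom. In footprints, Sst overlapped with Cck, Oxt with Pmch, Pmch with Avp and Avp with Vip, while Vip did not overlap with Pdyn.

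RNA of all 10 precursors was higher on average in KO than in WT brain, yet none passed the test. For 7 of them the lowest KO library exceeded the highest WT library, but adjusted p was 0.898 or more for each precursor (quasi-likelihood test in edgeR, p-values adjusted by Benjamini-Hochberg across 89237 transcripts). The median log2 fold change of the precursors was 0.43, and that of all genes tested was 0.08. The share of all transcripts called was 0.0134% (12 transcripts). An unadjusted p under 0.05 was reached by 7 of the 10 precursors and by 4.39% of 21662 genes, and 8.48% of those genes had the same separation, against 3.48% with every KO library below. No precursor had all KO libraries below WT.

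Among the hypothalamic precursors, Avp RNA showed the largest log2 fold change of the 10. It measured 4.22, 4.30 and 3.50 CPM in the WT libraries and 5.26, 9.53 and 7.40 CPM in the KO libraries. All KO values lay above all WT values, and the log2 fold change was 0.88 (standard error 0.22, 95% interval 0.38 to 1.38). Oxt, its neighbour and relative, measured 4.77, 4.78 and 3.08 CPM in WT and 3.54, 6.00 and 4.32 CPM in KO. The genotypes overlapped, with a log2 fold change of 0.13 (standard error 0.25, interval -0.43 to 0.69). The difference between Avp and Oxt was not tested. Pmch measured 7.47, 5.93 and 6.31 CPM in WT and 6.91, 9.54 and 8.72 CPM in KO, and KO replicate 1 lay below WT replicate 1. The fold change (log2) was 0.35 (standard error 0.16).

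Of the interneuron precursors, Npy, which encodes the appetite and stress peptide NPY, was highest in its fold change. Its RNA measured 16.6, 18.2 and 17.0 CPM in WT and 20.4, 32.0 and 30.7 CPM in KO. The WT libraries were close together and the KO libraries spread widely, for a log2 fold change of 0.68 (standard error 0.17, interval 0.28 to 1.08). Sst, the precursor of somatostatin, an inhibitor of hormone and transmitter release, measured 64.3, 64.7 and 51.8 CPM in WT and 65.3, 102 and 89.0 CPM in KO. KO replicate 1 exceeded the highest WT library by less than 1 CPM, so the separation of Sst was narrow, and its log2 fold change was 0.50 (standard error 0.18). Vip, the vasoactive intestinal peptide precursor, measured 7.69, 8.11 and 6.95 CPM in WT and 8.36, 11.8 and 10.5 CPM in KO, which came to 0.43 as a log2 fold change (standard error 0.15). Cck, the cholecystokinin precursor, measured 79.4, 88.3 and 60.1 CPM in WT and 75.2, 118 and 113 CPM in KO. The Cck groups overlapped, and its log2 fold change was 0.43 (standard error 0.21, interval -0.05 to 0.90).

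The striatal precursors Penk, Pdyn and Tac1 all had KO libraries above their WT libraries. Penk measured 82.3, 77.0 and 72.1 CPM in WT and 89.4, 117 and 110.4 CPM in KO, with a log2 fold change of 0.45 (standard error 0.14). Pdyn, the dynorphin precursor, measured 9.86, 10.4 and 10.8 CPM in WT and 11.6, 13.3 and 12.3 CPM in KO, with a log2 fold change of 0.26 (standard error 0.11). Tac1, the precursor of substance P, measured 16.7, 16.9 and 16.5 CPM in WT and 17.9, 23.8 and 21.8 CPM in KO, with a log2 fold change of 0.34 (standard error 0.13). For each of these genes KO replicate 1 was the KO library nearest to WT.

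**Figure D1:**
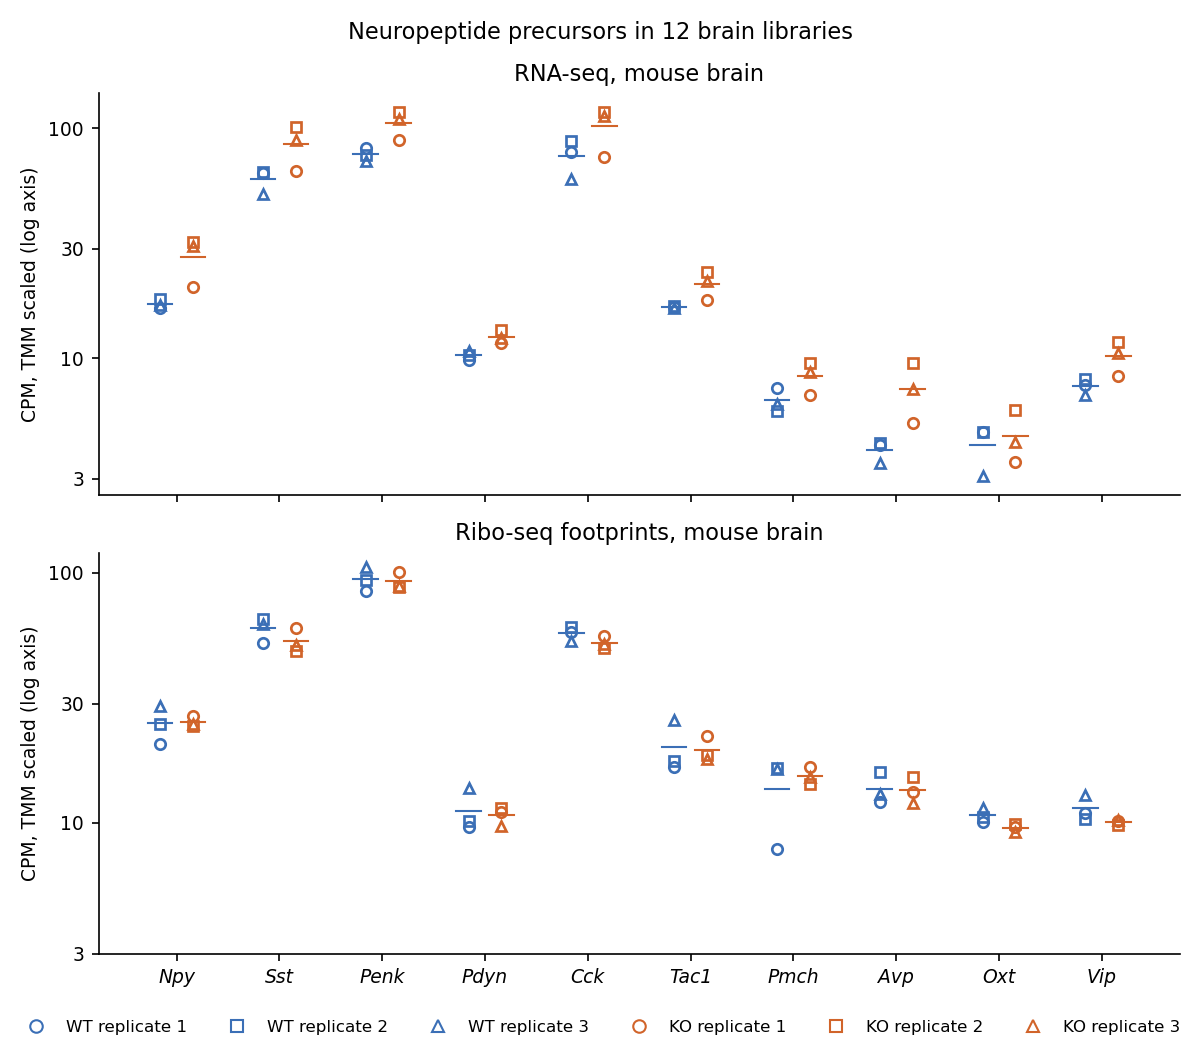
Level of each precursor in CPM (TMM scaled, log axis) in the 12 brain libraries, RNA-seq above and Ribo-seq below. Each symbol is 1 library (WT blue, KO orange, shape for the replicate) and each line the mean of 3. In RNA-seq the KO symbols of 7 precursors lie above all WT symbols, with KO replicate 1 lowest of its genotype for all 10, while in Ribo-seq the genotypes overlap except for Oxt and Vip.

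The height of the RNA differences depended on which libraries were compared. KO replicate 1 was the lowest KO library and KO replicate 2 the highest for all 10 precursors, and WT replicate 3, the library with pituitary RNA, was the lowest WT library for 7. The median deviation of the precursors from the mean of the 6 RNA-seq libraries was -0.15, -0.14 and -0.33 in WT replicates 1, 2 and 3 and -0.08, 0.42 and 0.27 in KO replicates 1, 2 and 3, on the log2 scale. Other short coding genes were also low in WT replicate 3 and high in KO replicates 2 and 3, by less. The 3707 coding genes tested with no more than 268 codons had median deviations of -0.02, 0.07 and -0.26 in WT and -0.12, 0.20 and 0.13 in KO, and a median log2 fold change of 0.16, with 80.0% above 0. Longer coding genes (12024 genes) had a median of 0.08. Among the short coding genes, Avp lay at percentile 99.4 of RNA fold changes, Npy at 98.8, Sst at 96.9 and Oxt at 43.3. The part of the dissection, RNA quality and these libraries in the precursors' differences was not tested.

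With each library left out in turn, all 10 precursors kept a higher RNA mean in KO, except Oxt without WT replicate 3 (log2 fold change -0.05) and without KO replicate 2 (-0.10), and no precursor was called. The count of precursors with an unadjusted p under 0.05 was 3 without WT replicate 3, without KO replicate 2 or without KO replicate 3, and 9 without KO replicate 1, where the lowest adjusted p was 0.078 (Npy). WT replicate 3 and KO replicate 1 deviated from their genotypes' means in the same way across genes (r = 0.668 over 16978 genes, which are not independent). Both were then left out, a choice made once the libraries had been seen and one that lowers the spread by its construction. Of all transcripts tested, 4.67% were then called higher in KO. Among the precursors, 9 of 10 had an adjusted p under 0.05 (edgeR), all higher in KO. Their log2 fold changes ran from 0.33 (Pdyn) to 0.98 (Avp), with 2 libraries per genotype, and Oxt was the exception at 0.10. The short coding genes differed by a median of 0.13 on the log2 scale with and without these libraries, and the precursors by 0.41 with them and 0.47 without.

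The mean footprint levels of the precursors in KO lay close to those in WT. The median log2 fold change of the precursors was -0.06 (all genes tested, -0.05), with 3 of 10 above 0, a range from -0.19 (Vip) to 0.20 (Pmch), and adjusted p of 0.530 or more for each (the same edgeR test, adjusted across 81112 transcripts). None was called, none had an unadjusted p under 0.05, and DESeq2 called none either. Of all transcripts 0.0345% were called (28 transcripts), and 14% of 20643 genes had an unadjusted p under 0.05. Every KO library lay above WT for none of the precursors (8.66% of genes) and below WT for Oxt and Vip (10.3% of genes). Short coding genes had lower footprints in KO, with a median log2 fold change of -0.16 over 3193 genes and 21.1% above 0. Among these short genes, Vip (percentile 41.7), Sst (46.7) and Oxt (48.8) lay below the middle. The other precursors lay above it, up to Avp (79.1), Npy (81.2) and Pmch (95.5).

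Footprints of Avp measured 12.1, 16.0 and 13.1 CPM in WT and 13.3, 15.3 and 12.0 CPM in KO. The values interleaved, and the log2 fold change was 0.0026 (standard error 0.14, interval -0.29 to 0.30). Npy measured 20.7, 25.0 and 29.4 CPM in WT and 26.8, 24.5 and 24.9 CPM in KO, and its log2 fold change was 0.02 (standard error 0.13). The 3 KO libraries of Npy lay inside the WT range. Oxt measured 10.1, 10.6 and 11.5 CPM in WT and 9.61, 9.93 and 9.17 CPM in KO, and its highest KO library lay just under its lowest WT library. Its log2 fold change was -0.16 (standard error 0.11). Vip measured 11.0, 10.4 and 13.0 CPM in WT and 10.2, 9.82 and 10.3 CPM in KO, with the genotypes just apart and a log2 fold change of -0.19 (standard error 0.12). Pmch measured 7.83, 16.6 and 16.4 CPM in WT and 16.8, 14.3 and 15.3 CPM in KO. WT replicate 1 stood far below the other libraries, and without it the log2 fold change of Pmch footprints was -0.10 in place of 0.20. In Ribo-seq, WT replicate 1 was the lowest WT library for 8 of the 10 precursors. Without it all 10 had footprint fold changes below 0, with a median of -0.145 against -0.06 with all libraries, and none was called.

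The other precursors had overlapping footprints in the 2 genotypes. Sst ran from 52.4 to 65.6 CPM in WT and 48.7 to 60.4 CPM in KO, and Cck from 53.3 to 61.1 CPM and 49.9 to 56.2 CPM. Penk ran from 84.5 to 105.9 CPM in WT and 87.9 to 101.3 CPM in KO. Pdyn (9.64 to 13.8 CPM in WT, 9.73 to 11.5 CPM in KO) and Tac1 (16.8 to 25.9 CPM in WT, 18.0 to 22.2 CPM in KO) were each highest in WT replicate 3. Their log2 fold changes lay between -0.17 (Sst) and -0.03 (Penk), and those of Penk, Pdyn and Tac1 changed sign with WT replicate 3 left out (0.06, 0.13 and 0.20).

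TE of all 10 precursors was lower in KO on average, and none passed the test. The median log2 fold change in TE was -0.50, against -0.12 for all genes tested, and it ran from -0.87 (Avp) to -0.14 (Pmch), with adjusted p of 0.880 or more for each (edgeR's quasi-likelihood test of the assay by genotype term over 98861 transcripts). No transcript of any gene was called in TE by edgeR (0%), where DESeq2 called 18, none of them a precursor. The study, using RiboDiff, reported many transcripts with significant TE changes in brain, and the reason for the difference in calls was not tested. An unadjusted p under 0.05 was reached by 6 precursors and by 5.3% of 27031 genes (1432 genes). These 6 were Avp (-0.87, standard error 0.28), Sst (-0.66, 0.23), Npy (-0.64, 0.24), Vip (-0.60, 0.21), Cck (-0.54, 0.24) and Penk (-0.47, 0.18). The log2 fold changes of Tac1 (-0.36, 0.23), Pdyn (-0.31, 0.21), Oxt (-0.28, 0.29) and Pmch (-0.14, 0.32) had intervals that included 0.

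For 8 precursors the log2 fold change of TE was near that of RNA with the opposite sign, while Pmch (RNA 0.35, footprints 0.20, TE -0.14) and Oxt (RNA 0.13, footprints -0.16, TE -0.28) had footprint differences as large as those in RNA or TE. Short coding genes as a group also had lower TE in KO, with a median of -0.30 over 3896 genes and 15.9% above 0, where longer coding genes had a median of -0.05. Among the short coding genes Avp lay at percentile 7.37, Sst at 11.4, Npy at 11.9, Oxt at 54.7 and Pmch at 73.1. Most precursors thus lay below the middle of that range, and Oxt and Pmch above it. Without WT replicate 3 in both assays, an alternative chosen after the libraries had been seen, the median of the precursors was -0.37, Pmch turned to 0.09, and only Avp kept an unadjusted p under 0.05 (0.029, edgeR). Another alternative chosen in that way left out WT RNA-seq replicate 3 and KO RNA-seq replicate 1 together, which lowers the spread by its construction. Avp, Npy, Sst and Vip were then called with lower TE (log2 fold changes -0.96, -0.81, -0.71 and -0.67). Of all transcripts tested, 0.212% were called with lower TE in that setting.

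In WT brain the precursors also differed among themselves in how many footprints they had for their RNA, and their order depended on whether length was taken into account. As log2 of footprint CPM per kb of coding sequence over RNA CPM per kb of transcript, Vip stood highest at 2.17 ± 0.202 and Avp next at 1.97 ± 0.264 (combined SD of the 3 Ribo-seq and 3 RNA-seq libraries), at percentiles 86.5 and 82.4 of 13961 coding genes. Tac1 (1.92), Oxt (1.87), Pdyn (1.80), Pmch (1.65) and Npy (1.49) followed, then Penk (1.15), Sst (1.05) and Cck (0.591 ± 0.304, percentile 33.6). Neighbours in this order differed by less than their combined SD, except Npy from Penk and Sst from Cck. The median of short coding genes was 1.14, so 8 precursors lay above it and Sst and Cck below.

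Without length, as log2 of footprint CPM over RNA CPM, Avp (1.78), Oxt (1.35) and Pmch (1.05) stood apart at percentiles 94.0, 90.8 and 86.5, and Vip came to 0.593. Coding sequence makes up 87.3% of the Avp transcript, 69.8% of Oxt and 66.1% of Pmch, against 33.5% of Vip and 31.7% of Tac1, which accounts for the change of order by the construction of the ratio. In KO brain the levels per length were lower for all 10, between 0.0373 (Cck) and 1.57 (Oxt). The medians were lower in KO too, at 0.92 for all coding genes (1.02 in WT) and 0.821 for short coding genes (1.14 in WT). Shared reads of Avp and Oxt and the antisense overlap of Pmch touch these values, and their part was not tested.

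**Figure D2:**
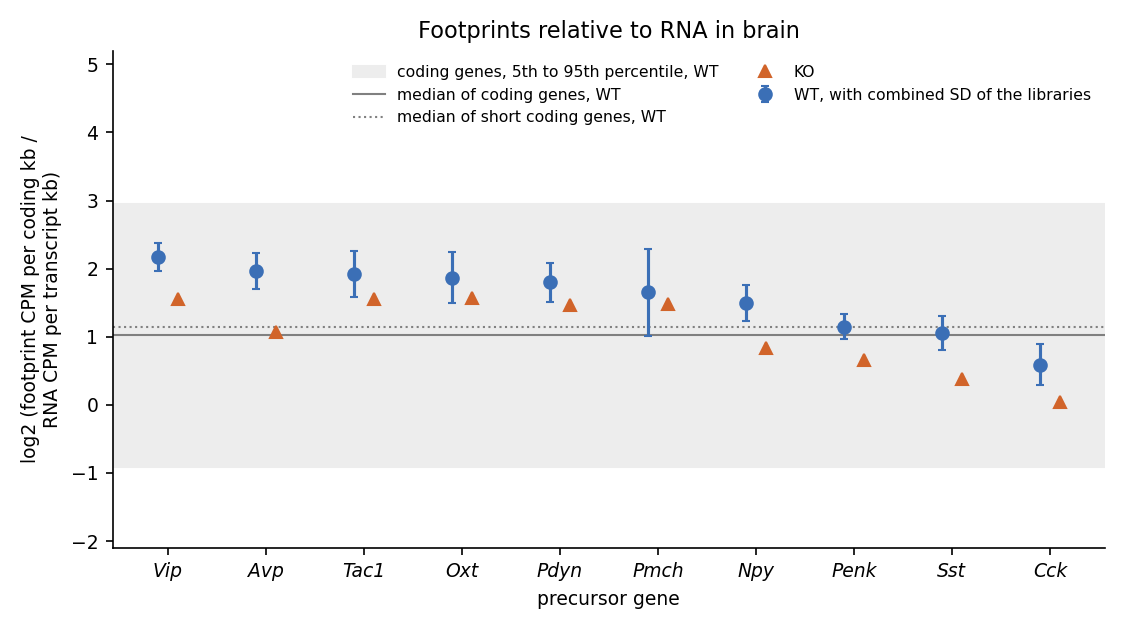
Footprint CPM per kb of coding sequence over RNA CPM per kb of transcript (log2) of each precursor in WT brain (circles, with the combined SD of the 3 Ribo-seq and 3 RNA-seq libraries) and KO brain (triangles). The band spans the 5th to 95th percentile of coding genes in WT (-0.91 to 2.95), and the lines mark the medians of all coding genes (1.02) and short coding genes (1.14). Vip and Avp are the highest and Cck the lowest, and each triangle lies below its circle. The KO medians, which are not drawn, are lower too (0.92 for all coding genes and 0.821 for short coding genes).

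The spread between libraries of a genotype differed widely among the precursors. In RNA-seq the within-genotype SD of log2 CPM was 0.336 for Oxt, 0.323 for Cck and 0.302 for Avp, at percentiles 93.4, 92.4 and 90.3 of 21662 genes, whose median was 0.159. Pdyn was among the steadiest, at 0.0792 (percentile 9.71). The KO libraries of Avp (SD 0.401) and Npy (0.353) spread more than their WT libraries (0.145 and 0.0668). In Ribo-seq the order was another: Pmch had the largest SD (0.428, percentile 93.7), from WT replicate 1, and Oxt (0.0759) and Cck (0.0929) were among the smallest. Oxt and Cck thus had large SDs in RNA-seq and small ones in Ribo-seq. Oxt had 98 to 355 footprints per library, and the part of counting error in these SDs was not tested.

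Regional markers are set here beside the precursors made by neurons of the same regions. Striatum markers were lowest in WT replicate 3 in both assays (230 CPM in RNA-seq and 164 CPM in Ribo-seq), where Penk, Pdyn and Tac1 footprints were at their highest. In RNA-seq, Penk (72.1 CPM) and, narrowly, Tac1 (16.5 CPM) were lowest in WT replicate 3, while Pdyn was lowest in WT replicate 1 (9.86 CPM). The 6 GABA interneuron markers summed to 262 to 292 CPM in WT and 268 to 340 CPM in KO RNA-seq, with KO replicates 2 and 3 highest, as for Npy, Sst and Vip. The 3 neuron markers did likewise, at 1090 to 1400 CPM in WT and 1340 to 1570 CPM in KO. Brainstem markers were higher in all KO Ribo-seq libraries (35.4 to 36.9 CPM against 21.1 to 29.8 CPM), as were those of thalamus (103 to 106 against 81.3 to 98.0 CPM) and cerebellum (286 to 304 against 186 to 283 CPM). Markers of olfactory bulb (3.41 to 6.30 against 8.21 to 16.3 CPM), cortex (239 to 268 against 278 to 297 CPM) and blood (345 to 440 against 634 to 1830 CPM) were lower in all KO Ribo-seq libraries. In RNA-seq, the brainstem, thalamus, cerebellum, olfactory bulb, cortex and blood lists each overlapped between genotypes. Hippocampus, a home of Npy, Sst and Vip interneurons, was among the lists whose RNA-seq markers were higher in every KO library. Its Ribo-seq markers overlapped between genotypes (25.0 to 29.4 CPM in WT and 24.7 to 29.1 CPM in KO). The part of hippocampus in the RNA differences of these precursors was not tested. In WT replicate 3, where pituitary markers were high, the RNA levels of Avp and Oxt were the lowest of all 6 libraries.

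The rest of the neuropeptide system was read from 3 lists, whose counts above 0 are to be read against 64.9% of all genes tested in RNA, 42.7% in footprints and 38.0% in TE. Of 15 genes for precursor processing and granules, all 15 had a higher RNA mean in KO (median log2 fold change 0.24), and none was called in RNA, footprints or TE. The smallest unadjusted p-values in RNA were those of Scg5 (0.40, standard error 0.13), the chaperone of the convertase PC2, Chga (0.37, 0.14), a granin that packs granules, and Pcsk2 (0.30, 0.13), which encodes PC2. In footprints 11 of the 15 lay above 0 (median 0.15). The 3 with the smallest unadjusted p-values each had non-overlapping libraries, and none was called. Of these, Pcsk1n, an inhibitor of PC1, was lower in KO at -0.45 (standard error 0.12). Cadps, a granule release factor, was higher at 0.29 (0.11), and Furin, a convertase of the Golgi, lower at -0.39 (0.16). In TE 3 of the 15 lay above 0 (median -0.10). The smallest unadjusted p-values in TE were those of Pcsk1n (-0.60, 0.20), Scg5 (-0.44, 0.19) and Cpe, the carboxypeptidase that trims cut peptides (-0.38, 0.16).

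Of 35 other precursor genes, 28 had enough reads for the RNA test, and 22 of these had a higher mean in KO (median 0.31), with none called. Hcrt, the orexin precursor of the lateral hypothalamus, measured 1.82 ± 0.479 CPM in WT and 3.47 ± 0.882 CPM in KO (SD, n = 3), a log2 fold change of 0.93. Pnoc, the nociceptin precursor (0.48), and Gal, the galanin precursor (0.74), were also higher in every KO library. In footprints 20 were tested and 5 lay above 0 (median -0.23). Cartpt (-0.56), Cort (-0.83) and Nmb (-1.10), with 8 to 192 footprints per library, were lower in every KO library, and none was called. In TE 3 of 28 lay above 0 (median -0.50, equal to the precursors' own), with the smallest unadjusted p-values at Cartpt (-0.99), Adcyap1 (-0.74) and Cort (-0.84).

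Of 22 receptor genes for these peptides, 15 of the 20 tested had a higher RNA mean in KO (median 0.19), close to the share over all genes, and none was called. The Npy receptor gene Npy2r had log2 fold changes of 0.52 in RNA and 0.43 in footprints, with every KO library above WT in both assays. The somatostatin receptor genes Sstr3 (0.44) and Sstr2 (0.49) were higher in every KO RNA-seq library. In footprints 7 of the 19 receptors tested lay above 0 (median -0.03), and none was called. Among them, Tacr3 (0.50) was higher in every KO library and Sstr3 (0.42) overlapped. In TE the smallest unadjusted p-values were those of Sstr2 (-0.56), Mchr1 (-0.48) and Vipr1 (-0.45), with 10 of 21 receptors above 0 (median -0.01).

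The genes whose pattern was most like each precursor over the 12 brain libraries, after removal of each assay and genotype mean, were named by Pearson's r as a description. Pmch was followed most closely by Parpbp (0.990), which overlaps it, then by Slc6a3 (0.958), the dopamine transporter, and 1500015O10Rik (0.956). Parpbp measured 4.51 CPM of footprints in WT replicate 1 and 7.67 to 8.36 CPM in the other libraries, the same low library as for Pmch. Npy was most like Surf4, Srrd and Jagn1 (0.946 to 0.951), Sst like Gm9844, Vkorc1 and Thoc7 (0.976 to 0.982), Penk like Bscl2, Gnptg and Zdhhc7 (0.969 to 0.974) and Pdyn like Foxred2, Stim1 and Gprc5c (0.965 to 0.983). Cck was most like Ndufa2, Puf60 and Eif1 (0.986 to 0.991), Tac1 like Saraf, P3h4 and Hsd11b1 (0.957 to 0.979) and Vip like Car8, Smyd2 and Siae (0.965 to 0.969). Avp (Gm7665, Pih1d1 and Gm47154, 0.954 to 0.972) and Oxt (Med30, Mal2 and Gm6285, 0.953 to 0.960) had other partners. The points share libraries and depth, and the 3 best were picked from 16978 genes.

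In the 6 kidney RNA-seq libraries of the series, Sst, Pdyn, Tac1, Avp and Vip had 0 reads, which allows up to 0.0667 CPM from counting alone. Cck (185 to 360 reads, median 6.26 CPM), Npy (63 to 88 reads, 1.48 CPM) and Penk (19 to 70 reads, 0.853 CPM) were read in every kidney RNA-seq library and every kidney Ribo-seq library, and Pmch and Oxt had 0 to 4 and 0 to 10 RNA reads.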

How the data were processed

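Brain RNA-seq and Ribo-seq libraries (3 per genotype and assay) were taken from the mouse table, of which 30 columns carry the titles of samples. The authors trimmed reads with cutadapt, filtered them with the FASTX Toolkit, removed rRNA reads, aligned with STAR to GRCm38.p6 with multimapping allowed and counted with featureCounts (versions not given in the sources used here). They deposited whole-number counts per transcript without normalization. A read can enter several transcripts. The table of human transcripts has 28 columns titled as mouse samples and was not used. Of 142604 transcripts 141374 matched GENCODE M21, and the others held 1.06% of counts.

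Genotypes were tested with the quasi-likelihood F-test of edgeR on all transcripts that passed filterByExpr, TMM factors being set within each assay. P-values were adjusted by Benjamini-Hochberg and called under 0.05. For TE the interaction of assay and genotype was tested, in place of the study's RiboDiff. Standard errors were obtained as |log2 fold change| divided by sqrt(F), and 95% intervals use the fit's degrees of freedom. Spread and likeness used log2(CPM + 0.5), while fold changes are edgeR's own. Counts of genes, medians and percentiles used 1 transcript per gene. Alternatives were DESeq2, library totals, no filter, 1 transcript per gene, sums per gene, replicate blocks and each library left out. Tested on simulated data in which 200 transcripts were given a log2 change of 2, the fits recovered 92% (RNA), 100% (footprints) and 73% (TE) of these and called 17, 35 and 14 unchanged transcripts.

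The precursors, lists and tests were chosen with earlier results of these data known. Genes named are the precursors, Rpl41, from each list the called genes (there were none) and the 3 with the smallest unadjusted p per comparison, and the 3 genes most like each precursor. Other genes were named after their values were seen, and the footprint to RNA ratio per length was added after the ratio without length had been seen. The intervals include the spread between libraries, and floors (3 counts) cover counting error only. R 4.3.3, edgeR 4.0.16, DESeq2 1.42.0, the package data.table (1.17.8), Python 3.11.15, numpy 2.4.6, pandas 2.3.3 and matplotlib 3.10.9 were used.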

Additional observations from a re-analysis of the deposited data

How the results depend on the processing

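With all libraries kept, no precursor was called by DESeq2, with library totals, with no filter, with 1 transcript per gene, with sums per gene or with replicate blocks, and the directions in RNA and TE held in each of these. The sizes moved, and with 1 transcript per gene the precursors' median log2 fold change was 0.335 in RNA and -0.375 in TE. In that setting RNA of Oxt (0.042) and TE of Pmch (-0.0027) were near 0. None was called with a single library left out. Footprint fold changes near 0 changed sign: Avp to -0.00456 with DESeq2 and -0.0185 with library totals, Npy to -0.00343 with library totals, Penk to 0.000748 with 1 transcript per gene and 0.00265 with sums per gene, and Tac1 to 0.00527 with sums per gene. Leaving out single libraries gave log2 ranges across 0 for RNA of Oxt (-0.10 to 0.29), for footprints of Npy (-0.11 to 0.17), Penk (-0.11 to 0.0587), Pdyn (-0.19 to 0.13), Tac1 (-0.18 to 0.20), Pmch (-0.10 to 0.42) and Avp (-0.10 to 0.11), and for TE of Pmch (-0.43 to 0.0475). Without WT replicate 3 in both assays, TE of Pmch was 0.0927.

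Calls over all transcripts were 12 in RNA (23 with DESeq2, 6 with 1 transcript per gene, 5 with sums per gene, 11 to 16 with single libraries left out), 28 in footprints (359 with DESeq2, 1573 with no filter, 6 with 1 transcript per gene, 0 with sums per gene, where 2541 genes had an unadjusted p under 0.05, and 15 to 79 with single libraries left out) and 0 in TE (18 with DESeq2, 5 with no filter, 1 with sums per gene, 0 to 2 with single libraries left out, 1 without WT replicate 3 in both assays). Without WT RNA-seq replicate 3 and KO RNA-seq replicate 1 together, 9281 transcripts were called in RNA and 1688 in TE. The causes of these differences in counts were not tested. The WT ratio of footprint CPM to RNA CPM (log2) moved by more than the library spread with sums per gene for Penk (0.512) and Vip (1.05).

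With the replicate number as a block, 80 footprint calls were made, Avp footprints were at -0.0203, and no precursor was called in RNA, footprints or TE. The numbers did not pair the genotypes, since same-numbered WT and KO libraries had correlations of deviations from -0.519 to 0.488 in RNA-seq and from -0.081 to -0.035 in Ribo-seq. Across assays, same-numbered libraries had correlations of 0.167 to 0.378 in WT, where each Ribo-seq library was most like its own number, and -0.0483 to 0.0933 in KO. Pairing them within genotype left 0 TE calls. With 3 libraries per group, no precursor's difference in RNA (0.13 to 0.88) passed the adjustment over all transcripts in the full data. Power at differences of this size was not tested.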
